A study of Mus musculus with 20 samples.

Results

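Potassium channels and the related HCN channels were described across nuclei of mouse spinal cord. The set held 38 genes of the 43629 in the count table, chosen by symbol. Of these, 31 encode pore-forming subunits and 7 encode accessory subunits. Nuclei were sorted on NeuN, the neuronal nuclear protein encoded by Rbfox3, into a NeuN-positive (neuronal) and a NeuN-negative (mainly non-neuronal) fraction. The mice had experimental autoimmune encephalomyelitis (EAE), an inflammatory disease of the central nervous system, and were taken 15 days after active immunization, or they were healthy. Each of the 4 groups (EAE NeuN-positive, healthy NeuN-positive, EAE NeuN-negative, healthy NeuN-negative) held 5 libraries of polyadenylated RNA, numbered 1 to 5. The strain, sex and age of the mice, the immunizing antigen and any pooling of animals are not stated in the labels. P-values therefore measure the spread between these libraries, which may in part be technical. All values describe RNA of nuclei, and in such bulk samples fewer nuclei of a type and less RNA per nucleus cannot be told apart.

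Potassium channels let potassium leave the cell and so pull the membrane back towards rest. Voltage-gated (Kv) subunits open on depolarization and set the shape and rate of action potentials. Calcium-activated and sodium-activated subunits open after activity has let those ions in. Inward rectifiers of the GIRK type open on signals from G protein-coupled receptors, and tandem-pore (K2P) channels carry a resting leak. HCN channels pass a mixed cation current on hyperpolarization. In spinal cord white matter, Kv1 channels are known to lie beside the nodes of Ranvier, under the myelin sheath, and glia use potassium channels to take up potassium released by neurons.

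Total counts were 7072200 to 18686997 in EAE NeuN-positive, 12076860 to 30499828 in healthy NeuN-positive, 3149209 to 15525441 in EAE NeuN-negative and 8336330 to 37689267 in healthy NeuN-negative libraries. Rbfox3 followed the sort, at 110 to 301 CPM (counts relative to the library total, scaled by TMM) in EAE NeuN-positive and 16.5 to 47.6 CPM in EAE NeuN-negative libraries. It was at 289 to 375 CPM in healthy NeuN-positive and 14.0 to 42.4 CPM in healthy NeuN-negative libraries. Libraries of the same condition and number are taken here as the same mouse, which the labels do not state. In NeuN-positive nuclei the mice EAE 2, EAE 4 and healthy 3 stood apart in the share of counts from mitochondrially encoded genes. This share was 9.35, 5.30 and 3.003% in their NeuN-positive libraries, against at most 1.22% in the other EAE and 0.833% in the other healthy NeuN-positive libraries. In their NeuN-negative libraries it was 14.6, 9.83 and 4.51%. The other EAE NeuN-negative libraries were at 2.18 to 7.94%, with library 5 the highest, and the other healthy ones at 0.367 to 2.03%. The NeuN-positive libraries of these mice also held the most RNA of the myelin genes Mbp and Mobp, at 54000, 28300 and 30800 CPM of Mbp. The other 10 oligodendrocyte markers did not follow them: summed, they were at 1380 to 2420 CPM in EAE and 961 to 1990 CPM in healthy NeuN-positive libraries, and Aspa and Sox10 were lowest of their group in EAE library 2. Counts of channel genes are also given without these 3 mice, which leaves 3 EAE and 4 healthy mice. EAE NeuN-positive library 2 had the lowest value of its group for 25 of the 38 channel genes. None of the listed markers of neurons, glia, endothelium, monocytes and macrophages, or T cells was at 0 in all 5 libraries of a group.

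All 38 channel genes were detected in every group. Divided by the length of their merged exons, which allows genes to be compared, the sodium-activated channel gene Kcnt1 (Slack) had the highest level in NeuN-positive nuclei. Its level averaged 218 ± 57.7 CPM per kb in EAE and 224 ± 45.0 CPM per kb in healthy NeuN-positive nuclei (SD, n = 5 each). Its level was 16.3 ± 6.83 CPM per kb in EAE and 23.1 ± 8.85 CPM per kb in healthy NeuN-negative nuclei. Hcn2, a pore subunit of the HCN pacemaker channel, came after Kcnt1 in NeuN-positive nuclei, with a level of 83.6 ± 17.9 CPM per kb in EAE and 132 ± 64.5 CPM per kb in healthy mice. Kcnab2 (the Kv beta subunit that binds Kv1 channels), Kcnh2 (ERG1) and Kcna1 (Kv1.1) held ranks 3 to 5 in both conditions, in a different order.

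In NeuN-negative nuclei the order of levels was different. Hcn2 was the highest of the 38 there, at 64.5 ± 53.3 CPM per kb in EAE and 368 ± 171 CPM per kb in healthy nuclei (SD, n = 5 each). The Kv1 genes Kcna1 and Kcna6 (Kv1.6) followed in both conditions, with levels of 27.0 ± 16.5 and 19.1 ± 7.83 CPM per kb in EAE and 76.7 ± 17.9 and 62.6 ± 20.03 CPM per kb in healthy nuclei. The lowest level in every group was that of Kcnk9 (TASK-3, a leak channel), at 0.141 CPM per kb in EAE and 0.0140 CPM per kb in healthy NeuN-negative nuclei. It had 0 counts in healthy NeuN-negative libraries 1 and 3, and the GIRK gene Kcnj6 had 0 counts in EAE NeuN-positive library 2.

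By family, the sodium-activated channels made up 33.1 ± 3.13% of the summed per-kb level of the 38 genes in EAE and 26.5 ± 2.30% in healthy NeuN-positive nuclei. The 2 HCN genes made up 29.3 ± 11.8% in EAE and 51.9 ± 10.8% in healthy NeuN-negative nuclei (SD, n = 5 each). These shares are of a common sum, so a fall of Hcn2 raises the share of all other families.

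**Figure D1:**
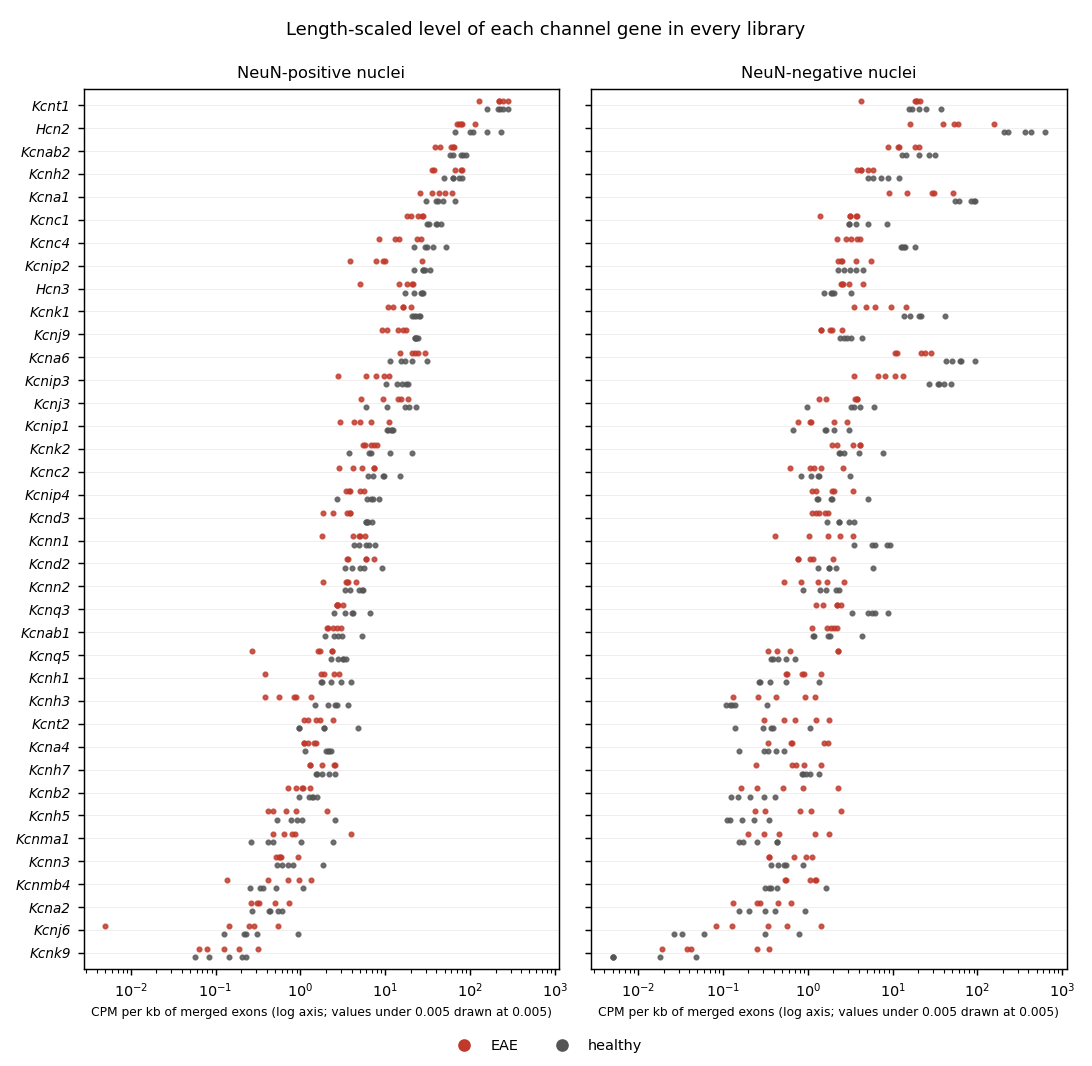
Level of each of the 38 channel genes in every library, as CPM per kb of merged exons on a log axis, with genes ordered by their mean in healthy NeuN-positive nuclei. Red points are EAE and grey points healthy libraries (5 each per row); Kcnt1 is at the top in NeuN-positive and Hcn2 the furthest right in NeuN-negative nuclei, and values under 0.005 are drawn at 0.005.

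The sort comparison asked which channel genes had more RNA in neuronal than in other nuclei. In EAE mice 12 of the 38 genes were higher in NeuN-positive nuclei and 0 were lower, by edgeR's quasi-likelihood test at a Benjamini-Hochberg adjusted p under 0.05 (16 had an unadjusted p under 0.05). Of all 17982 genes tested, 15.5% were higher and 14.8% lower (30.3% in either direction). In healthy mice 24 of the 38 were higher and 4 lower, against 22.8% higher and 23.0% lower (45.8% in either direction) of all 17134 genes tested. The median log2 fold change of the 38 genes was 0.79 in EAE and 1.54 in healthy mice, with -0.16 and -0.01 over all genes tested. All 12 genes of the EAE mice were among the 24 of the healthy mice, so the shared genes were 100% of the EAE list and 50% of the healthy list.

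The sodium-activated Kcnt1 was among the largest differences in both conditions. It was at 2090, 1200, 2310, 2690 and 2070 CPM in EAE NeuN-positive and at 174, 39.8, 182, 200 and 177 CPM in EAE NeuN-negative libraries 1 to 5 (values are in library order here and throughout). In healthy mice it was at 2150, 2020, 2650, 2330 and 1490 CPM in NeuN-positive and 150, 159, 356, 238 and 194 CPM in NeuN-negative libraries. The log2 fold change was 3.52 ± 0.46 (SE; adjusted p = 4.38e-05, edgeR) in EAE and 3.19 ± 0.35 (adjusted p = 1.59e-05) in healthy mice. The sorts did not overlap in either condition, and library 2 was the lowest in both EAE sorts.

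Kcnh2, the ERG1 channel, also known for ending the action potential of the heart, was at 384, 172, 323, 180 and 376 CPM in EAE NeuN-positive and 28.8, 20.3, 20.4, 18.3 and 24.8 CPM in EAE NeuN-negative libraries (3.43 ± 0.36, adjusted p = 9.64e-06, edgeR). Kcnc1 (Kv3.1), a fast Kv3 channel of rapidly firing neurons, was at 259, 190, 266, 231 and 172 CPM in EAE NeuN-positive and 29.4, 13.3, 35.3, 30.1 and 35.8 CPM in EAE NeuN-negative libraries (2.73 ± 0.33, adjusted p = 2.36e-05, edgeR). Neither gene had overlapping sorts in either condition.

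All 3 Kv3 genes (Kcnc1, Kcnc2 and Kcnc4) and the GIRK genes Kcnj3 and Kcnj9 were higher in NeuN-positive nuclei in both conditions. So were Kcnd2 of the Kv4 family, Kcnab2, the KChIP genes Kcnip1 and Kcnip2, and Hcn3. KChIPs are calcium-binding accessory subunits of Kv4 channels. With the mouse number as a block, Kcnn1 (SK1, adjusted p = 0.0322, edgeR) and Kcnk1 (TWIK-1, adjusted p = 0.0354) were also called higher in EAE mice, in a fit that called 3596 of all 17982 genes higher. Without the mice EAE 2 and EAE 4, 20 genes were higher in EAE mice, against 20.9% of all 18111 genes tested, the additional ones including Kcnb2, Kcnd3, Kcnh7, Kcnq5, Kcnip4 and Kcnn2.

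In healthy mice the largest difference was that of Kcnh3 (ELK2), an EAG-family channel of forebrain neurons. It was at 15.7, 12.3, 20.7, 14.8 and 8.52 CPM in healthy NeuN-positive and 0.699, 0.809, 0.727, 1.91 and 0.622 CPM in healthy NeuN-negative libraries (3.94 ± 0.42, adjusted p = 1.29e-05, edgeR). Hcn3 was at 113, 111, 70.5, 90.4 and 117 CPM in healthy NeuN-positive and 6.50, 8.37, 7.75, 7.98 and 13.5 CPM in healthy NeuN-negative libraries (3.46 ± 0.23, adjusted p = 4.62e-07, edgeR). The sorts did not overlap for these genes. All 5 EAG, ERG and ELK genes were higher in healthy NeuN-positive nuclei, and of these Kcnh2 was called in EAE mice.

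The 4 genes lower in healthy NeuN-positive nuclei were Kcna6, Hcn2, Kcnip3 and Kcna1, so they had more RNA in the non-neuronal fraction. Kcna6 was at 89.9, 101, 184, 123 and 67.3 CPM in healthy NeuN-positive and 296, 373, 562, 379 and 250 CPM in healthy NeuN-negative libraries (-1.78 ± 0.36, adjusted p = 0.00132, edgeR). Hcn2 was at 317, 345, 742, 500 and 210 CPM in healthy NeuN-positive and 650, 1160, 2000, 1350 and 727 CPM in healthy NeuN-negative libraries (-1.55 ± 0.45, adjusted p = 0.0126). The sorts of Kcna6 did not overlap, and those of Hcn2 overlapped through the high NeuN-positive value of mouse 3.

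Kcnip3, a KChIP also known as the transcriptional repressor DREAM, was at 56.6, 49.2, 65.8, 61.6 and 36.2 CPM in healthy NeuN-positive and 96.1, 145, 122, 172 and 124 CPM in healthy NeuN-negative libraries (-1.34 ± 0.23, adjusted p = 0.000526, edgeR). The sorts of Kcnip3 did not overlap. Kcna1 differed by -0.80 ± 0.21 (adjusted p = 0.00681). With the mouse block Kcnq3 (Kv7.3, a subunit of the M current) was also called lower (adjusted p = 0.000966), and 28 genes were called higher, with 33.2% of all genes higher and 32.5% lower in that fit. Without healthy mouse 3 the counts were 24 higher and 4 lower, against 25.8% and 26.2% of all genes.

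**Figure D2:**
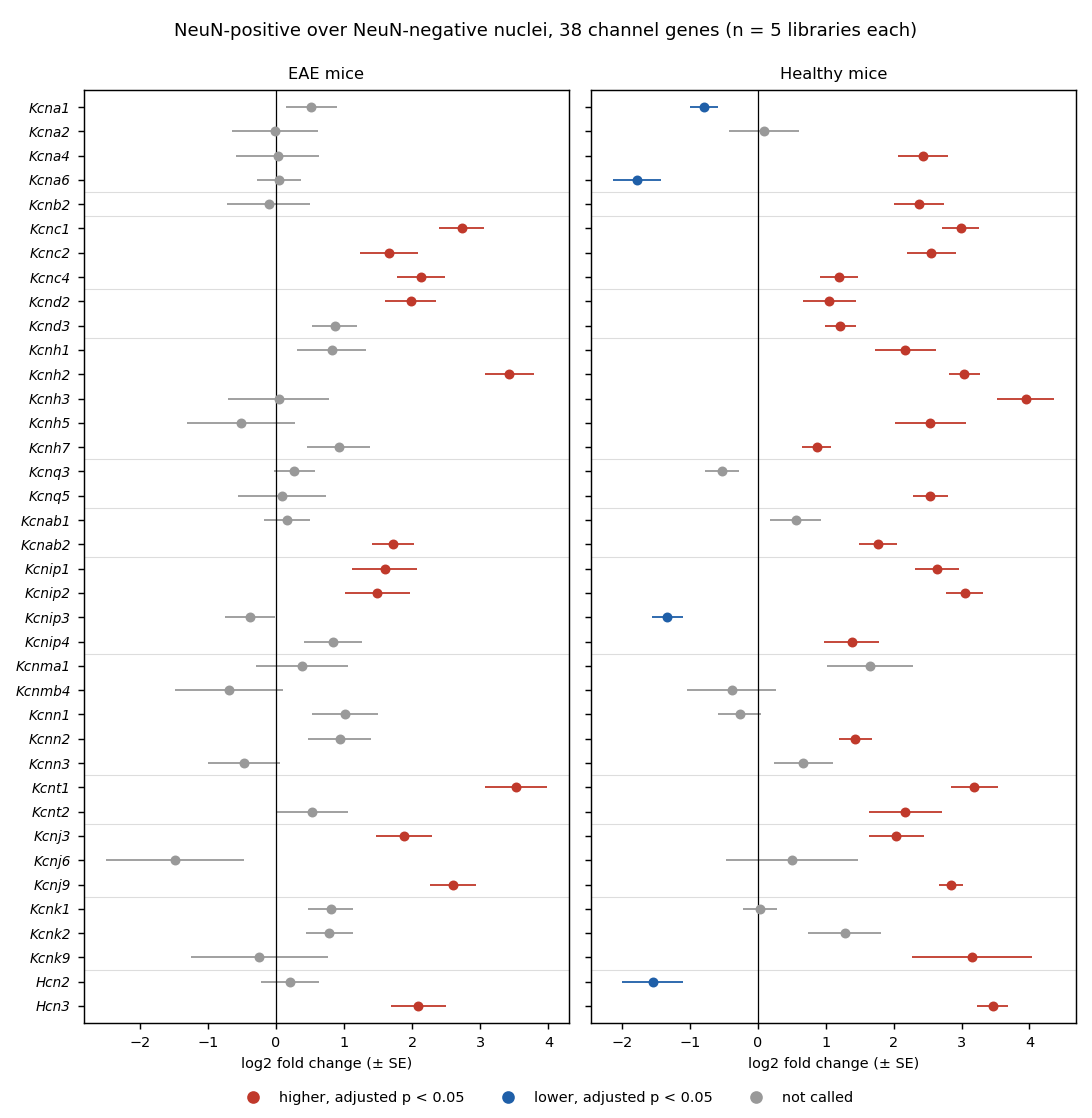
Log2 fold change (± SE) of NeuN-positive over NeuN-negative nuclei for the 38 channel genes, in EAE mice on the left and healthy mice on the right (5 libraries per sort). Red points are genes higher and blue points genes lower at an adjusted p under 0.05; 12 were higher in EAE mice, and 24 were higher and 4 lower in healthy mice.

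EAE and healthy mice were then compared within the NeuN-negative nuclei, where 37 of the 38 genes were tested and Kcnk9 did not pass the count filter. In EAE 6 genes were higher and 8 lower, against 15.1% higher and 12.6% lower (27.7% in either direction) of all 17604 genes tested. The median log2 fold change of the 37 genes was 0.14, and 0.05 over all genes. The 8 falls came from 7 families: Kcna1 and Kcna6 of Kv1, Kcnc4 of Kv3, Kcnq3 of Kv7, the KChIP gene Kcnip3, the calcium-activated Kcnn1, the K2P gene Kcnk1, and Hcn2. The groups did not overlap for 7 of the 8, all but Kcnk1, where of all genes tested 11.4% were lower with no overlap.

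Kcnip3 was at 46.4, 12.5, 38.3, 28.5 and 23.9 CPM in EAE and 96.1, 145, 122, 172 and 124 CPM in healthy NeuN-negative libraries (-1.87 ± 0.32, adjusted p = 0.000535, edgeR). Kcnc4 (Kv3.4), a rapidly inactivating Kv3 channel, was at 10.4, 8.12, 11.8, 15.0 and 14.0 CPM in EAE and 51.8, 46.2, 67.7, 49.3 and 47.8 CPM in healthy NeuN-negative libraries (-1.81 ± 0.31, adjusted p = 0.000578). Every EAE library was below every healthy library for both genes. The EAE values of Kcnc4 lay close together, while Kcnip3 was lowest in EAE library 2.

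Hcn2 was at 126, 50.6, 496, 187 and 171 CPM in EAE and 650, 1160, 2000, 1350 and 727 CPM in healthy NeuN-negative libraries (-2.31 ± 0.55, adjusted p = 0.00656, edgeR). EAE library 3 was the highest of its group and EAE library 2 the lowest. Kcna6 was at 129, 62.8, 167, 67.3 and 142 CPM in EAE and 296, 373, 562, 379 and 250 CPM in healthy NeuN-negative libraries (-1.47 ± 0.37, adjusted p = 0.00932). For both genes the groups did not overlap, and for Kcna6 the EAE libraries 2 and 4 were the lowest.

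Kcnq3 was at 18.3, 32.8, 36.0, 22.5 and 32.1 CPM in EAE and 75.9, 91.6, 48.7, 84.8 and 129 CPM in healthy NeuN-negative libraries (-1.20 ± 0.31, adjusted p = 0.0102, edgeR). Kcnk1 was at 32.2, 7.85, 21.4, 10.9 and 13.9 CPM in EAE and 47.7, 46.0, 30.5, 36.2 and 93.9 CPM in healthy NeuN-negative libraries (-1.26 ± 0.33, adjusted p = 0.0113). EAE library 1 of Kcnk1 overlapped healthy library 3, and healthy library 5 was far above the others. Kcnn1, a small-conductance calcium-activated channel, differed by -1.57 ± 0.47 (adjusted p = 0.0222), and Kcna1 by -1.24 ± 0.38 (adjusted p = 0.0232).

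All 8 falls were also called without the 3 mice that stood apart, against 12.3% of all genes lower in that fit, with Hcn2 at -1.64 (adjusted p = 0.0207, edgeR), Kcna6 at -0.88 (adjusted p = 0.0266) and Kcnip3 at -1.65 (adjusted p = 0.00118). Leaving out single libraries left 6 to 8 falls, in fits that called 1370 to 2806 of 17990 to 19299 genes lower. Kcna1 was not called without EAE NeuN-negative library 4 or 5 or healthy NeuN-negative library 1 or 2 (adjusted p up to 0.0752), and Kcnn1 not without EAE library 5 (adjusted p = 0.0581).

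Markers of other cell types differed between the same NeuN-negative groups. In EAE 7 of 12 oligodendrocyte markers were lower and 0 higher, 4 of 6 oligodendrocyte precursor markers were lower and 0 higher, and 3 of 10 astrocyte markers were lower and 0 higher. All 10 monocyte and macrophage markers and all 10 T cell markers were higher. The myelin genes Mbp and Mobp made up most of the oligodendrocyte sum in EAE, together 22700 to 91800 CPM in EAE and 15400 to 49400 CPM in healthy libraries, while the other 10 markers summed to 2730 to 13100 CPM in EAE and 18300 to 32200 CPM in healthy libraries. Mbp averaged 29604 CPM in EAE and 18261 CPM in healthy nuclei and was not called. The summed precursor level was 111 to 403 CPM in EAE and 432 to 1179 CPM in healthy libraries, and the summed astrocyte level was 746 to 2704 CPM in EAE and 1622 to 3846 CPM in healthy libraries. The summed level of the monocyte and macrophage markers was 672 to 2912 CPM in EAE and 59.7 to 111 CPM in healthy libraries, and that of the T cell markers was 99.1 to 299 CPM in EAE and 5.95 to 14.1 CPM in healthy libraries. Microglia markers were higher for 2 of 10 (509 to 2147 CPM in EAE, 649 to 844 CPM in healthy), endothelial markers for 1 of 8 (207 to 1090 CPM in EAE, 313 to 593 CPM in healthy), and 1 of 16 neuron markers was lower (1037 to 3336 CPM in EAE, 1687 to 4742 CPM in healthy). Inhibitory neuron markers were lower for 1 of 6 (78.7 to 185 CPM in EAE, 126 to 882 CPM in healthy), and excitatory and motor neuron markers were called for 0 of 6 and 0 of 4. Mitochondrially encoded genes took 2.18 to 14.6% of the counts in EAE and 0.367 to 4.51% in healthy NeuN-negative libraries. The part of these shifts in the falls of the channel genes was not tested.

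The 4 channel genes with more RNA in the non-neuronal fraction of healthy mice, Kcna1, Kcna6, Kcnip3 and Hcn2, were also among the 8 falls. The sort comparison and the EAE comparison share the healthy NeuN-negative libraries, so these results are not independent. In NeuN-positive nuclei Kcna1 averaged 207 ± 65.4 CPM in EAE and 216 ± 66.1 CPM in healthy mice, and Kcna6 averaged 133 ± 32.2 CPM in EAE and 113 ± 44.6 CPM in healthy mice. Hcn2 averaged 267 ± 57.3 CPM in EAE and 423 ± 206 CPM in healthy NeuN-positive nuclei (SD, n = 5 each), and none of the 3 was called in that sort. Kcnip3 averaged 26.4 ± 11.6 CPM in EAE and 53.9 ± 11.7 CPM in healthy NeuN-positive nuclei (-0.97 ± 0.31, adjusted p = 0.0610, edgeR), and it was called there by the DESeq2 Wald test and with the replicate block (adjusted p = 0.0446, edgeR).

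**Figure D3:**
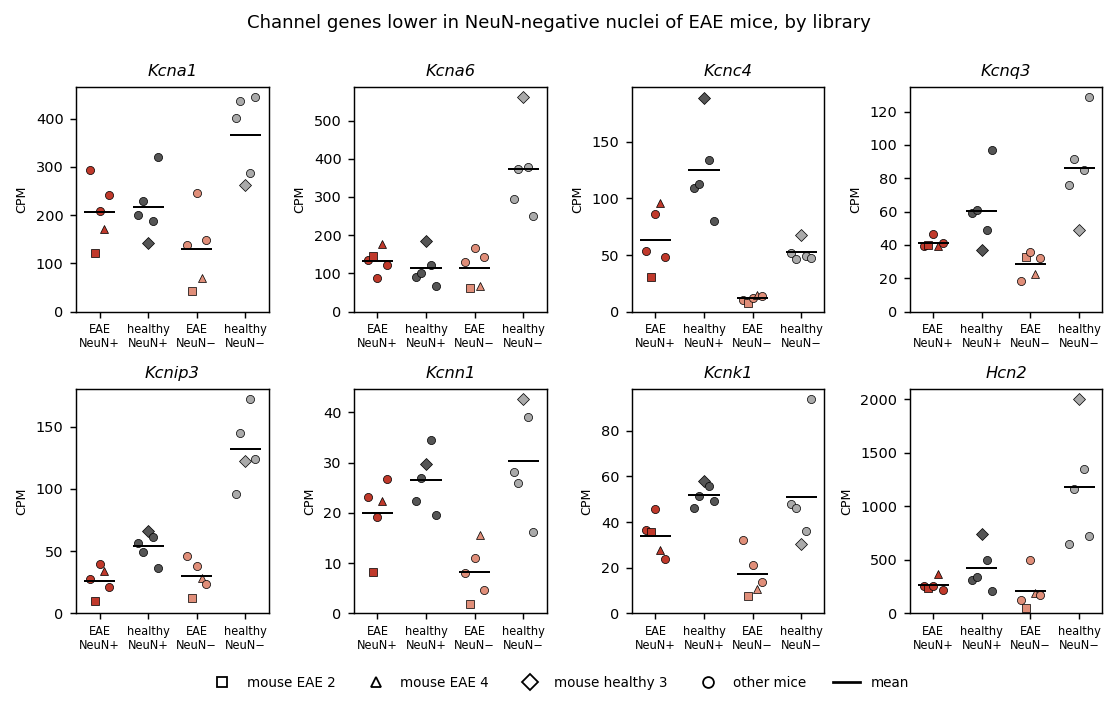
CPM of the 8 channel genes lower in NeuN-negative nuclei of EAE mice, in every library of the 4 groups, with bars at the means. Squares, triangles and diamonds mark the mice EAE 2, EAE 4 and healthy 3; in the NeuN-negative columns the EAE and healthy points are separate for every gene but Kcnk1.

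The 6 rises in NeuN-negative nuclei were small in level and rested on few libraries. They were Kcna4 (Kv1.4, 1.97 ± 0.71), Kcnb2 (Kv2.2, 2.28 ± 0.71), Kcnh3 (2.33 ± 0.84), Kcnh5 (EAG2, 2.82 ± 0.83), Kcnq5 (Kv7.5, 1.78 ± 0.63) and Kcnma1 (the BK channel of large conductance, 1.92 ± 0.64), with adjusted p of 0.0201 to 0.0494 (edgeR). None of the 6 averaged over 13.4 CPM in EAE or 4.90 CPM in healthy NeuN-negative nuclei, and the groups overlapped for each.

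EAE libraries 2 and 4 held the highest EAE values of 5 of these 6 genes, and for Kcnh5 the highest was library 4. Kcnb2 was at 2.46, 34.4, 3.80, 13.3 and 7.65 CPM in EAE and 1.90, 2.27, 6.18, 3.15 and 4.57 CPM in healthy NeuN-negative libraries. Kcnq5 was at 3.35, 17.6, 4.73, 17.3 and 2.60 CPM in EAE and 3.4, 2.99, 4.24, 2.81 and 5.43 CPM in healthy NeuN-negative libraries. For Kcnq5 the EAE libraries 1 and 3 lay within the healthy range and library 5 below it.

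The EAE libraries 2 and 4 had the lowest totals of all 20 (3149209 and 4104125 counts). Mitochondrially encoded genes took 14.6 and 9.83% of the counts of EAE libraries 2 and 4, and 7.94% in EAE library 5. Olfactory and vomeronasal receptor genes, which are not known to be expressed in spinal cord, took 0.278 and 0.232% of the counts of EAE libraries 2 and 4. They took 0.0223 to 0.0574% in the other EAE and 0.00361 to 0.0348% in the healthy NeuN-negative libraries. Without the 3 mice that stood apart 0 genes were higher, against 17.4% of all genes, with Kcnq5 at 0.22 and Kcnma1 at 0.60. No rise was called without EAE library 4, healthy library 1 or healthy library 2. A single rise was called without EAE library 2 (Kcnh5) or healthy library 4 (Kcnma1), and 2 without healthy library 5. These fits with fewer rises called 1796 to 2272 of all genes higher, against 2650 in the main fit. Without the count filter 2 rises were called (Kcnb2 and Kcnma1), against 14.9% of all genes higher.

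Within NeuN-positive nuclei all 38 genes were tested for EAE against healthy. In EAE 0 were higher and 4 were lower, against 6.55% higher and 3.68% lower (10.2% in either direction) of all 16675 genes tested. Of the 38 log2 fold changes 29 were negative and 9 positive, with a median of -0.38, and of all genes 8620 were negative and 8055 positive, with a median of -0.03. The 4 falls were Kcnd3 of Kv4, the KChIP gene Kcnip2, the EAG-family gene Kcnh3, and the GIRK gene Kcnj9. The groups did not overlap for Kcnd3, Kcnh3 and Kcnj9, nor for Kcnc1 and Kcnk1, which were not called (adjusted p = 0.0673 and 0.139, edgeR). Of all genes tested 3.45% were lower with no overlap.

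Kcnd3 (Kv4.3; ENSMUSG00000040896, chromosome 3, 105452330 to 105674002, plus strand) encodes a pore subunit of the A-type current, which delays firing. It was at 33.9, 17.9, 37.0, 22.9 and 36.6 CPM in EAE and 57.0, 57.1, 59.5, 59.0 and 66.0 CPM in healthy NeuN-positive libraries (-0.92 ± 0.21, adjusted p = 0.0155, edgeR). Kcnip2 (KChIP2; ENSMUSG00000025221, chromosome 19, 45791839 to 45816061, minus strand) was at 27.3, 13.3, 95.5, 32.4 and 34.4 CPM in EAE and 118, 96.2, 101, 97.8 and 76.5 CPM in healthy NeuN-positive libraries (-1.24 ± 0.36, adjusted p = 0.0438). The healthy values of Kcnd3 lay close together and EAE libraries 2 and 4 were the lowest. For Kcnip2, EAE library 3 lay within the healthy range and the other 4 below it.

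Kcnh3 (ENSMUSG00000037579, chromosome 15, 99224861 to 99242817, plus strand) was at 4.81, 5.07, 7.68, 2.2 and 3.22 CPM in EAE and 15.7, 12.3, 20.7, 14.8 and 8.52 CPM in healthy NeuN-positive libraries (-1.57 ± 0.37, adjusted p = 0.0182, edgeR). Kcnj9 (GIRK3; ENSMUSG00000038026, chromosome 1, 172320501 to 172329318, minus strand), a subunit of receptor-gated GIRK channels, was at 60.4, 39.2, 75.5, 69.9 and 45.1 CPM in EAE and 99.2, 105, 96.3, 98 and 96.8 CPM in healthy NeuN-positive libraries (-0.68 ± 0.20, adjusted p = 0.0440). Every EAE library was below every healthy library for both.

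Kcnd2 (Kv4.2) had a log2 fold change of 0.09 ± 0.30. Kcnip1 (-0.85 ± 0.27, adjusted p = 0.0612, edgeR), Kcnip3 (-0.97 ± 0.31, adjusted p = 0.0610) and Kcnip4 (-0.41 ± 0.27, adjusted p = 0.340) were negative with Kcnip2. The 3 Kv3 genes had log2 fold changes of -0.57, -0.69 and -0.93 with adjusted p of 0.0673, 0.104 and 0.0776. The Kv1 genes ran from -0.48 (Kcna4) to 0.34 (Kcna6), with Kcna2 (Kv1.2) at 0.02. The calcium-activated genes ran from -0.42 (Kcnn3) to 0.63 (Kcnma1), with the BK accessory gene Kcnmb4 at 0.56 and the SK genes Kcnn1 and Kcnn2 at -0.33 and -0.32. Of the EAG family, Kcnh1, Kcnh5 and Kcnh7 were at -0.35, -0.29 and 0.10, and Kcnh2 at -0.05. Kcnt1 and Kcnt2 were at 0.05 and -0.23, and the GIRK genes Kcnj3 and Kcnj6 at -0.14 and -0.53. The leak channel genes Kcnk1, Kcnk2 (TREK-1) and Kcnk9 were at -0.52, -0.49 and 0.25. Kcnb2, Kcnq3, Kcnq5, Kcnab1 and Kcnab2 were at -0.26, -0.41, -0.76, -0.20 and -0.36. None of these was called. Hcn2 and Hcn3 were at -0.58 ± 0.34 and -0.51 ± 0.29, and neither was called.

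Without the 3 mice that stood apart 0 falls were called, against 1.83% of all genes lower, with Kcnd3 at -0.61 (adjusted p = 0.0573, edgeR), Kcnh3 at -1.19 (adjusted p = 0.0540), Kcnj9 at -0.61 (adjusted p = 0.0571) and Kcnip2 at -0.80 (adjusted p = 0.170). Kcnd3 and Kcnh3 were called with any single library left out, and they were the only 2 called without EAE NeuN-positive library 1, 2 or 5 or healthy NeuN-positive library 1, 2, 3 or 4. Those fits called 178 to 998 of all genes lower, against 613 in the main fit. The DESeq2 Wald test called 8 falls, adding Kcnc1, Kcnc4, Kcnip1 and Kcnip3, and 4.03% of all genes lower.

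Markers also differed between the NeuN-positive groups. General neuron markers were called for 0 of 16 genes, and their summed level was 20471 to 33319 CPM in EAE and 25850 to 29957 CPM in healthy libraries. Snhg11 alone made up most of that sum, at 14300 to 25000 CPM in EAE and 17400 to 23500 CPM in healthy libraries. Of the markers of inhibitory neurons 2 of 6 were lower (203 to 497 CPM in EAE, 361 to 1008 CPM in healthy libraries), and of those of excitatory neurons 2 of 6 (228 to 329 CPM in EAE, 319 to 477 CPM in healthy). Motor neuron markers were called for 0 of 5 (32.8 to 48.4 CPM in EAE, 37.9 to 64.7 CPM in healthy). Monocyte and macrophage markers were higher for 9 of 10 (338 to 1822 CPM in EAE, 22.2 to 52.5 CPM in healthy), T cell markers for 6 of 7 (21.4 to 81.1 CPM in EAE, 6.71 to 12.1 CPM in healthy), and microglia markers for 5 of 9 (207 to 370 CPM in EAE, 28.6 to 57.9 CPM in healthy). Astrocyte markers were higher for 2 of 10 (484 to 1128 CPM in EAE, 309 to 577 CPM in healthy), endothelial markers for 1 of 8 (78.6 to 297 CPM in EAE, 66.2 to 191 CPM in healthy), precursor markers for 0 of 6 (44.3 to 77.6 CPM in EAE, 48.8 to 72.0 CPM in healthy) and oligodendrocyte markers for 2 of 12. Of these 12, 6 log2 fold changes were positive and 6 negative, and the 10 other than Mbp and Mobp summed to 1380 to 2420 CPM in EAE and 961 to 1990 CPM in healthy libraries. Mitochondrially encoded genes took 1.08 to 9.35% of the counts in EAE and 0.197 to 3.003% in healthy NeuN-positive libraries. The part of these in the falls was not tested.

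**Figure D4:**
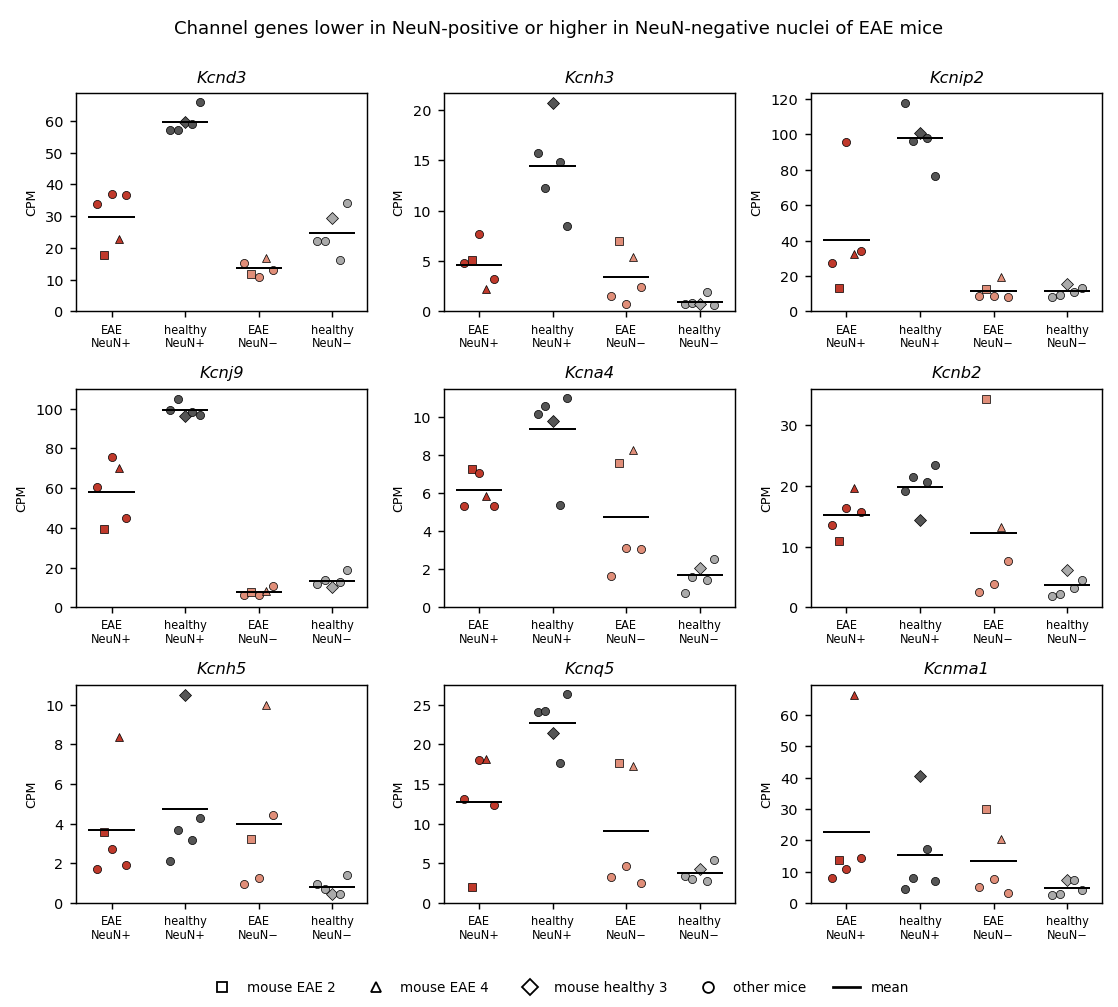
CPM in every library of the 4 channel genes lower in NeuN-positive nuclei of EAE mice (Kcnd3, Kcnh3, Kcnip2, Kcnj9) and of the 6 higher in NeuN-negative nuclei (Kcnh3 is both), with bars at the means. Squares, triangles and diamonds mark the mice EAE 2, EAE 4 and healthy 3; the high EAE NeuN-negative values of Kcna4, Kcnb2, Kcnq5 and Kcnma1 are the square and the triangle.

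The sequences before the start sites of Kcnd3 and Kcnip2, which fell in NeuN-positive nuclei and encode subunits of the same channel complex, and of Hcn2 and Kcna6, which fell in NeuN-negative nuclei, are shown to compare their GC content and motifs. They are 250 bases upstream of the RefSeq start (GRCm38.p6), read 5′ to 3′ on the gene's strand, with GC boxes (GGGCGG or CCGCCC, on either strand) in capitals.
Kcnd3, chr3:105451640-105451889, plus strand: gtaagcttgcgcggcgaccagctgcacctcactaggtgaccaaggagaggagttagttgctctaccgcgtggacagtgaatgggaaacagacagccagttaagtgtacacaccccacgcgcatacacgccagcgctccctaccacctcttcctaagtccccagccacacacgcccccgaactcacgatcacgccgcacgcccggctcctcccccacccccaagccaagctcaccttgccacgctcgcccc
Kcnip2, chr19:45816064-45816313, minus strand: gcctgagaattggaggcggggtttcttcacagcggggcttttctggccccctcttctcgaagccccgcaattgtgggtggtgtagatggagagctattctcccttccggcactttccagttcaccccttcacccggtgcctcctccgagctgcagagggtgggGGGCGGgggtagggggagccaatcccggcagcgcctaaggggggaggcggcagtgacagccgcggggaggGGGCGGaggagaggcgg
Hcn2, chr10:79716384-79716633, plus strand: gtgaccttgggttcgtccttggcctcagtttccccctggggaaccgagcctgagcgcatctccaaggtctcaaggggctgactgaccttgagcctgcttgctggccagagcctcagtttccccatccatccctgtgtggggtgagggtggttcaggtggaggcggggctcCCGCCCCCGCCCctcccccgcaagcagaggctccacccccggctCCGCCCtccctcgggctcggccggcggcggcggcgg
Kcna6, chr6:126740675-126740924, minus strand: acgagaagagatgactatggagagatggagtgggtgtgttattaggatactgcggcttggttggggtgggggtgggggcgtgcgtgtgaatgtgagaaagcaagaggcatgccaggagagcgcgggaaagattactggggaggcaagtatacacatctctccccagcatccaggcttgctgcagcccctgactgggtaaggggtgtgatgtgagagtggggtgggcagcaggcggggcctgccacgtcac
Kcnip2 held 2 GC boxes and Hcn2 held 3, and the letters were absent from the windows of Kcnd3 and Kcna6. CpG dinucleotides numbered 18 in Kcnd3, 15 in Kcnip2, 16 in Hcn2 and 8 in Kcna6. RefSeq entries were matched for 30 of the 38 genes, with 48 windows of 250 bases before and 50 after a start. A GC box was in 47.9% of these and in 35.7% of all 32851 windows, the CCAAT box (CCAAT or ATTGG) in 39.6 and 37.4%, the TATA box (TATAAA or TTTATA) in 4.17 and 13.6%, and the cyclic AMP response element (TGACGTCA) in 0 and 1.79%. Such matches are letters and not known binding sites.

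Whether the EAE-to-healthy difference was unequal in the 2 sorts was tested over all 20 libraries with an interaction term, which is also the difference of the sort effect between EAE and healthy mice. It passed for 2 of 38 genes, with 1 higher and 1 lower, against 1.74% higher and 0.822% lower (2.56% in either direction) of all 20444 genes tested. For Kcna6 the log2 effect of EAE in NeuN-positive nuclei exceeded that in NeuN-negative nuclei by 1.92 ± 0.47 (adjusted p = 0.0301, edgeR). Kcna6 was at 134, 146, 88.8, 177 and 122 CPM in EAE and 89.9, 101, 184, 123 and 67.3 CPM in healthy NeuN-positive libraries, which overlapped (0.34 ± 0.32, adjusted p = 0.498), beside the fall in NeuN-negative nuclei.

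For Kcnh3 the log2 effect of EAE in NeuN-positive nuclei minus that in NeuN-negative nuclei was -3.62 ± 0.79 (adjusted p = 0.0185, edgeR). Kcnh3 fell in NeuN-positive nuclei, and in NeuN-negative nuclei it was at 1.49, 7.04, 0.749, 5.36 and 2.44 CPM in EAE and 0.699, 0.809, 0.727, 1.91 and 0.622 CPM in healthy libraries. The high values were EAE libraries 2 and 4, and EAE libraries 1 and 3 lay within the healthy range. Without the 3 mice that stood apart neither gene was called (adjusted p = 0.0662 for Kcna6 and 0.0841 for Kcnh3, edgeR), and 1.83% of all genes were higher and 1.82% lower. Kcna6 was not called either with DESeq2 size factors, which shifted the all-gene median in this test by -0.25 and the calls over all genes to 236 higher and 236 lower, against 356 and 168 with TMM.

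With the mouse as a block, which the shared library numbers of the sorts allow, the difference passed for 9 genes, against 9.74% of all genes higher and 2.45% lower in that fit. The EAE effect was higher in NeuN-positive than in NeuN-negative nuclei for Kcna1 (adjusted p = 0.00612, edgeR), Kcna6 (0.00426), Kcnc4 (0.0222), Kcnq3 (0.0179), Kcnip3 (0.0243), Kcnn1 (0.0236) and Hcn2 (0.00709), which also fell in NeuN-negative nuclei. That comparison uses the same NeuN-negative libraries, so it is no independent result. It was lower for Kcna4 (adjusted p = 0.0422) and Kcnh3 (adjusted p = 0.0144).

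**Figure D5:**
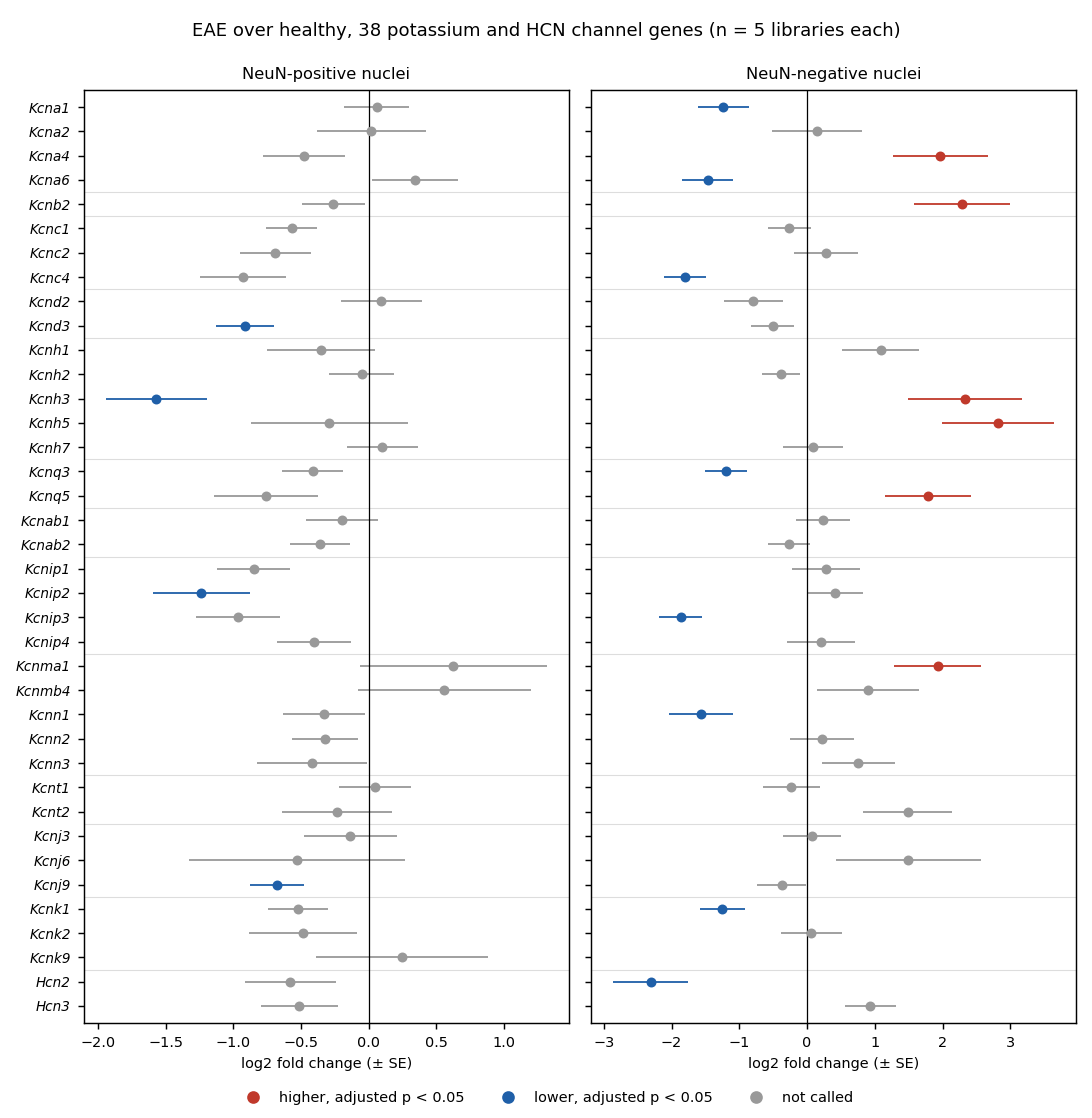
Log2 fold change (± SE) of EAE over healthy for the 38 channel genes, ordered by family, in NeuN-positive nuclei on the left and NeuN-negative nuclei on the right (5 libraries per group; the axes differ in range). Red points are genes higher and blue points genes lower at an adjusted p under 0.05: 4 lower on the left, and 6 higher and 8 lower on the right, where Kcnk9 was not tested.

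Of 59 further potassium and HCN channel genes, 45 were tested in NeuN-positive nuclei, where 2 were higher and 1 lower in EAE. Of all genes tested there, 6.55% were higher and 3.68% lower. Kcnn4, the calcium-activated channel KCa3.1 known from T cells and activated microglia, was at 4.91 CPM in EAE and 0.963 CPM in healthy nuclei on average (2.42 ± 0.61, adjusted p = 0.0231, edgeR). Kcnk6, a K2P channel gene, was at 7.21 CPM in EAE and 3.05 CPM in healthy nuclei (1.37 ± 0.39, adjusted p = 0.0387). Kcnu1, a channel gene known from sperm, was at 6.35 CPM in EAE and 15.9 CPM in healthy nuclei (-1.25 ± 0.36, adjusted p = 0.0420). Without the 3 mice that stood apart Kcnn4 was called (3.30 ± 0.40, adjusted p = 0.000769, edgeR), and Kcnk6 (1.18 ± 0.39, adjusted p = 0.0833) and Kcnu1 (-0.80 ± 0.30, adjusted p = 0.115) were not.

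In NeuN-negative nuclei 6 of 45 such genes were higher and 2 lower, against 15.1% higher and 12.6% lower of all genes tested. Kcnn4 was at 48.0, 10.8, 38.5, 23.2 and 32.7 CPM in EAE and 2.2, 1.5, 1.45, 1.12 and 0.973 CPM in healthy NeuN-negative libraries (4.66 ± 0.41, adjusted p = 1.61e-06, edgeR). Every EAE library of Kcnn4 was above every healthy library. Kcnk6 (1.81 ± 0.37, adjusted p = 0.00236), Kcne1l (2.19 ± 0.50, adjusted p = 0.00486) and Kcna5 (Kv1.5, 2.67 ± 0.78, adjusted p = 0.0197) were also higher. Among the falls, Kcnk13 (THIK-1, the leak channel of microglia) averaged 13.8 CPM in EAE and 40.6 CPM in healthy nuclei (-1.24 ± 0.32, adjusted p = 0.00983, edgeR). The remaining 2 rises were Kcne1 and Kcnmb1. EAE libraries 2 and 4 held the highest EAE values of Kcna5 (5.69 and 15.9 CPM, the others 1.34 to 4.76 CPM), Kcne1 and Kcnmb1, and without the 3 mice none of these 3 was called (adjusted p = 0.139, 0.130 and 0.208, edgeR). Kcnn4, Kcnk6, Kcne1l and Kcnk13 were called without them (adjusted p up to 0.0165).

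Of 12 genes for partners of these channels, 0 of 11 tested were called in NeuN-positive nuclei and 2 of 10 were lower in NeuN-negative nuclei of EAE mice. Over all genes 10.2% were called in NeuN-positive nuclei and 12.6% were lower in NeuN-negative nuclei. Pex5l encodes TRIP8b, which controls the surface level of HCN channels. It was at 86.5, 28.4, 400, 42.9 and 173 CPM in EAE and 620, 684, 315, 462 and 630 CPM in healthy NeuN-negative libraries (-1.66 ± 0.54, adjusted p = 0.0305, edgeR), with EAE library 3 above the lowest healthy value, and EAE library 3 was also the highest of its group for Hcn2. Lgi1, a secreted protein gene linked to Kv1 channels, was at 53.0, 24.4, 19.7, 22.3 and 20.3 CPM in EAE and 151, 128, 183, 135 and 105 CPM in healthy NeuN-negative libraries (-2.05 ± 0.34, adjusted p = 0.000472). The groups did not overlap for Lgi1. Without the 3 mice Lgi1 was called (-1.83 ± 0.35, adjusted p = 0.00204, edgeR) and Pex5l was not (-1.18 ± 0.42, adjusted p = 0.0530).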

How the data were processed

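Raw counts per Ensembl gene were deposited by the authors in a single table with a column per library. STAR 2.4 and DESeq2, and the builds GRCm39 and mm10, are named in the submitters' processing notes. Which counting tool, annotation and strand setting were used is not given in the sources used here. Exons of 17 of the 38 channel genes overlap a gene on the opposite strand and those of 3 a gene on the same strand (GENCODE M21, GRCm38), among them Kcnh3 with Mcrs1 and Kcnd3 with Kcnd3os. The whole span of the other gene was used, introns included. How many bases or reads such pairs share was not tested. Lengths and positions come from that annotation. Totals were 3149209 to 37689267 counts. The 40 library pairs within groups differed by more than sampling noise (chi-square per gene of at least 11.1).

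Groups came from the titles. Each comparison was fitted with edgeR 4.0.16 in R 4.3.3 (filterByExpr, TMM, robust quasi-likelihood test, Benjamini-Hochberg adjustment over all genes tested) on the 10 libraries it compares. The interaction used all 20. The scripts were tested on simulated data. SE is of the log2 fold change, and CPM use TMM over all libraries. Same-numbered libraries of the sorts deviated together (correlations of 0.115 to 0.379 in EAE and 0.28 to 0.7 in healthy mice, all over 0.1). Libraries of different number had correlations of -0.242 to 0.187 in EAE and -0.493 to 0.32 in healthy mice, so the ranges overlapped. A pairing by mouse was read from the shared numbers and these correlations.

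The channel genes, lists and settings were chosen with earlier results of these data known, including the fit without the mice EAE 2, EAE 4 and healthy 3. All channel genes are named. Values per library are given for those called in NeuN-positive nuclei or in the difference of effects, the 6 of smallest p in NeuN-negative nuclei, and the 3 largest each way per sort comparison. Of the other lists, called genes are named, at most 6 per comparison. A further channel gene called in NeuN-negative nuclei is not reported here. Library values of Kcnb2 and Kcnq5, and the names Kcne1 and Kcnmb1, were added after their values were seen. Alternatives were DESeq2 1.42.0 size factors and its Wald test, no filter, a filter of 1 CPM in 5 libraries, the replicate block, the fit without the 3 mice, and each library left out. The fit of the other lists without the 3 mice was added after seeing the data.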

Additional observations from a re-analysis of the deposited data

Results flagged for a closer look

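A screen took 208 groups of 5 libraries. These were each channel gene, the total count, the mitochondrial share, the olfactory and vomeronasal share, and each marker sum, in each group. In 31, the gap from the highest or lowest library to the next exceeded 0.71 of the range. For normally distributed values chance gives about 1 in 20 groups, or 10.4. These measures were not log-transformed, and whether they were normally distributed was not tested. Libraries of a group share these measures, so the flags are not independent. The explanations of these values were not tested.

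Only flagged values are listed here and in the next paragraph. Healthy NeuN-negative library 5, the deepest, was flagged as the highest of its group for 8 genes. These were Kcnc2 (22.7 CPM), Kcnd2 (30.3 CPM), Kcnh1 (9.87 CPM) and Kcnab1 (37.7 CPM). The others were Kcnip4 (18.7 CPM), Kcnt2 (7.33 CPM), Kcnk1 (93.9 CPM) and Hcn3 (13.5 CPM). Whatever the gap, that library was the highest of its group for 22 of the 38 channel genes. Healthy NeuN-negative library 3 was the highest for Kcnc4 (67.7 CPM), Kcnmb4 (5.45 CPM) and the olfactory and vomeronasal share (0.0348%), and library 4 for Kcnh3 (1.91 CPM). Healthy NeuN-positive library 3 was the highest for Kcnh5 (10.5 CPM), Kcnn3 (19.2 CPM), Kcnj6 (7.13 CPM), the mitochondrial share (3.003%), the olfactory and vomeronasal share (0.00840%) and the oligodendrocyte marker sum (44297 CPM). Healthy NeuN-positive library 5 was the highest for Kcnd3 (66.0 CPM) and Kcnt2 (32.7 CPM), and library 4 the lowest for Kcna4 (5.41 CPM).

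In EAE, NeuN-positive library 4 was the highest for Kcnh5 (8.37 CPM), Kcnma1 (66.4 CPM), Kcnn3 (9.84 CPM) and Hcn2 (367 CPM), and library 3 for Kcnq3 (46.5 CPM) and Kcnip2 (95.5 CPM). NeuN-positive library 2 was the lowest for the neuron marker sum (20471 CPM), of which Snhg11 was 14300 CPM. NeuN-negative library 1 was the highest for the endothelial marker sum (1090 CPM), and library 2 was the lowest for Kcnc1 (13.3 CPM) and Kcnt1 (39.8 CPM). The EAE effect differed between the sorts for Kcna6 (1.92 on the log2 scale, NeuN-positive minus NeuN-negative) and Kcnh3 (-3.62).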

How the results depend on the processing

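In the settings other than single libraries left out, the calls on single channel genes kept their direction and their side of the threshold 331 times and lost significance 28 times, and 0 calls changed sign. With single libraries left out they were kept 543 times and lost 77 times. In NeuN-positive nuclei the 4 falls in EAE were 8 with the DESeq2 Wald test and 0 without the mice EAE 2, EAE 4 and healthy 3. In NeuN-negative nuclei the 6 rises were 2 without the count filter, 0 with the replicate block and 0 without the 3 mice. The 12 genes higher in NeuN-positive nuclei of EAE mice were 20 without the 3 mice. For the difference of the EAE effects, the genes higher (1) were 0 with DESeq2 size factors, 2 with the Wald test, 0 without the filter, 7 with the replicate block and 0 without the 3 mice, and the genes lower (1) were 7 with the Wald test, 2 with the block and 0 without the 3 mice. In a fit added after seeing the data, leaving out the 3 mice gave, for the other channel genes (48 tested per sort), 4 rises and 0 falls among NeuN-positive nuclei and 8 rises and 6 falls among NeuN-negative nuclei. Over all genes that fit called 1249 of 17315 higher and 1.83% lower in NeuN-positive nuclei, and 17.4% higher and 12.3% lower in NeuN-negative nuclei. The cause of these changes was not tested.

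With each library left out in turn, the falls in NeuN-positive nuclei were 2 to 6, and in NeuN-negative nuclei the rises were 0 to 6 and the falls 6 to 8. The calls over all genes moved too. In NeuN-positive nuclei 178 to 1462 of 16869 to 17106 genes were lower. The most, 1462 of 16915, came without EAE library 3, the fit with 6 falls. In NeuN-negative nuclei 1796 to 4011 of 17990 to 19299 genes were higher and 1370 to 2806 lower. The sort comparison gave 11 to 15 genes higher and 0 lower in EAE mice, and 23 to 25 higher and 4 to 5 lower in healthy mice. Over all genes it gave 2202 to 3237 higher and 1731 to 3482 lower in EAE mice, and 3503 to 4354 higher and 3471 to 4300 lower in healthy mice. The difference of effects gave 0 to 3 higher and 0 to 3 lower, with 63 to 754 of 20841 to 22107 genes higher and 21 to 353 lower over all genes. It had 0 higher without EAE NeuN-positive library 1, 2, 4 or 5, EAE NeuN-negative library 4, healthy NeuN-positive library 1, 2 or 5, or healthy NeuN-negative library 2, 3 or 4, and 0 lower without healthy NeuN-negative library 2. It had 3 higher without EAE NeuN-negative library 3, and 3 lower without EAE NeuN-negative library 1 or 3. Lower counts were 2 without EAE NeuN-positive library 3 or healthy NeuN-negative library 3.

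EAE and healthy libraries of the same number did not deviate together (correlations of -0.335 to 0.275 in NeuN-negative and -0.323 to 0.211 in NeuN-positive nuclei), so in those comparisons the replicate block pairs libraries that share only a number. With it Kcnj9 was lost (adjusted p = 0.0851, edgeR) and Kcnip3 gained in NeuN-positive nuclei. Beside the changes given for the sort comparisons and the difference of effects, the mouse block ended no call. With DESeq2 size factors the all-gene median shifted by -0.10 (log2) in the sort comparison of EAE mice and by -0.25 in the difference of effects. Genes of a few CPM, such as Kcnk9, Kcnj6, Kcnh5 and Kcnh3 in NeuN-negative nuclei, had as few as 0, 5, 4 and 6 counts in single libraries, so differences between their groups were limited by depth.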
